A study of Rattus norvegicus with 9 samples.

Results

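Genes of the extracellular matrix, of the proteases that cut it, of the inhibitors of those proteases and of the integrins that bind it were followed in RNA-seq of cultured cardiac fibroblasts (CFs). The genes were taken by the spelling of their symbols alone (MMP, TIMP, COL, ADAM, LAM, ITGA or ITGB, CTS, HAS and single names such as BGN, VTN, SPP1 and CD44), and COL1A2 was left out. This gave 29 of the 22512 listed genes. Only 2153 of the 22512 are listed by a symbol, so matrix and integrin genes listed otherwise could not be followed. COL1A1 and COL3A1, whose proteins are the main fibrillar collagens of the heart, are not among these names. The CFs came from the hearts of neonatal rats, were separated from other cells by their faster adherence and were used after few passages. The blank group had no treatment named in the labels, the AngII group received angiotensin II (AngII) at 0.1 µM for 72 h, and the vericiguat + AngII treatment group received vericiguat at 1.0 µM for 24 h ahead of the same AngII. This order is that of the labels, while the methods of the study describe the reverse, AngII first, for a migration assay, and the values cannot tell which order the sequenced cells had. AngII is a peptide hormone that activates CFs, and vericiguat stimulates soluble guanylate cyclase, which makes cGMP. Each group had 3 libraries. The labels do not say whether these came from separate cultures or animals, so the p-values measure only the spread between these samples.

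The matrix of the heart is a network of collagen fibres, proteoglycans such as biglycan, glycoproteins and hyaluronan. Matrix metalloproteinases (MMPs) are secreted or membrane-bound enzymes that cut it, and the tissue inhibitors of metalloproteinases (TIMPs) bind and block them. Cathepsins are proteases that work largely in lysosomes, while ADAM and ADAMTS enzymes shed surface proteins or cut proteoglycans. Integrins are pairs of an alpha and a beta chain that tie the cell to the matrix. CFs make most of the cardiac matrix, and the balance of MMPs and TIMPs is a classical readout of fibrosis.

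Expression was deposited as FPKM, which corrects the fragments of a gene for its length and for how many fragments of its library were mapped. The organism label reads Rattus norvegicus, whereas the submitters' processing notes name OryCun2.0, a rabbit genome assembly, and how this affects the values was not tested. Of the 29 names, 28 equal a rat symbol when case is ignored, the exception being ADAM6A. The 13 entries named KEF51 held 97.6% to 97.9% of the summed FPKM in blank, 96.7% to 97.5% in AngII and 45.3% to 52.3% in treatment. FPKM of at least 1 was reached by 260 to 1542 genes in blank, 1155 to 1517 in AngII and 11280 to 11565 in treatment. The treated libraries therefore stood apart in the number of genes at this level before any matrix gene was looked at. Fibroblast markers (4 of 14 listed by symbol, COL1A2, DCN, LUM and FN1) summed to 1.70 to 24.7 FPKM in blank, 7.09 to 25.7 in AngII and 368 to 527 in treatment. Cardiomyocyte markers (6 of 15 listed) summed to 6.80 to 9.06, 45.0 to 109 and 3812 to 6077 FPKM, with NPPA at 0 in every blank library. Red blood cell markers (2 of 8) summed to 154 to 398, 204 to 310 and 8364 to 15127 FPKM. Endothelial markers (2 of 8) summed to 0.054 to 0.398, 0.083 to 0.421 and 81.3 to 86.2 FPKM, with KDR at 0 in every blank library. Smooth muscle and pericyte markers (4 of 9) summed to 0.738 to 21.7, 0.673 to 1.60 and 228 to 341 FPKM, and CD14, the macrophage and leukocyte marker that is listed (1 of 11), lay at 0.151 to 1.14, 0 to 0.202 and 5.16 to 8.56 FPKM. The part of any of these cells in the results was not tested.

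The table gives no read counts. The values of a gene in different libraries are close to whole multiples of what 1 fragment is worth, so the smallest whole numbers of fragments that give them within 3% were worked out, and they are given beside low values. They are a lower estimate, since the true numbers may be a multiple of them. They rest on depths of 0.691 to 1.16 relative to the first blank library, of which the second blank library could be off by a factor of 2 and the tie to the treated libraries rests on 29 genes. The search for these depths allowed a log2 gap of at most 0.7 between compared libraries. A larger gap could not have been found. By this estimate 1 fragment separates many of the lowest values from 0. In bulk RNA, fewer cells of a type and less RNA per cell cannot be told apart. In blank and AngII, genes that every cell uses are also found at FPKM 0, so a gene is only said to be listed at 0.

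Among the 29 genes, 3 (CD44, MMP2 and BGN) were above 0 in all 9 libraries. Another 4 were listed at 0 in all 9, and 5 were above 0 only in treated libraries. The number above 0 was 14, 6 and 13 in blank, 14, 14 and 15 in AngII and 24 in each treated library. Summed over the 29 genes, FPKM was 27.5, 0.863 and 13.5 in blank, 7.29, 3.80 and 8.85 in AngII and 242, 182 and 190 in treatment. The second blank library was the lowest of all, with 260 genes at FPKM 1 or more. In parts per 1000000 of the FPKM outside the KEF51 entries, the sums were 888, 23.8 and 357 in blank, 159, 65.9 and 164 in AngII and 567, 423 and 439 in treatment, so on this scale the blank libraries spanned the treated ones. A single entry, ADORA1-2, held 59.7% to 90.0% of the FPKM outside KEF51 in blank, 71.7% to 80.0% in AngII and 17.1% to 27.8% in treatment. With it left out as well, the sums were 2206, 239 and 1739 parts in blank, 690.0, 329 and 579 in AngII and 685, 524 and 608 in treatment, so that the AngII libraries spanned the treated ones.

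**Figure D1:**
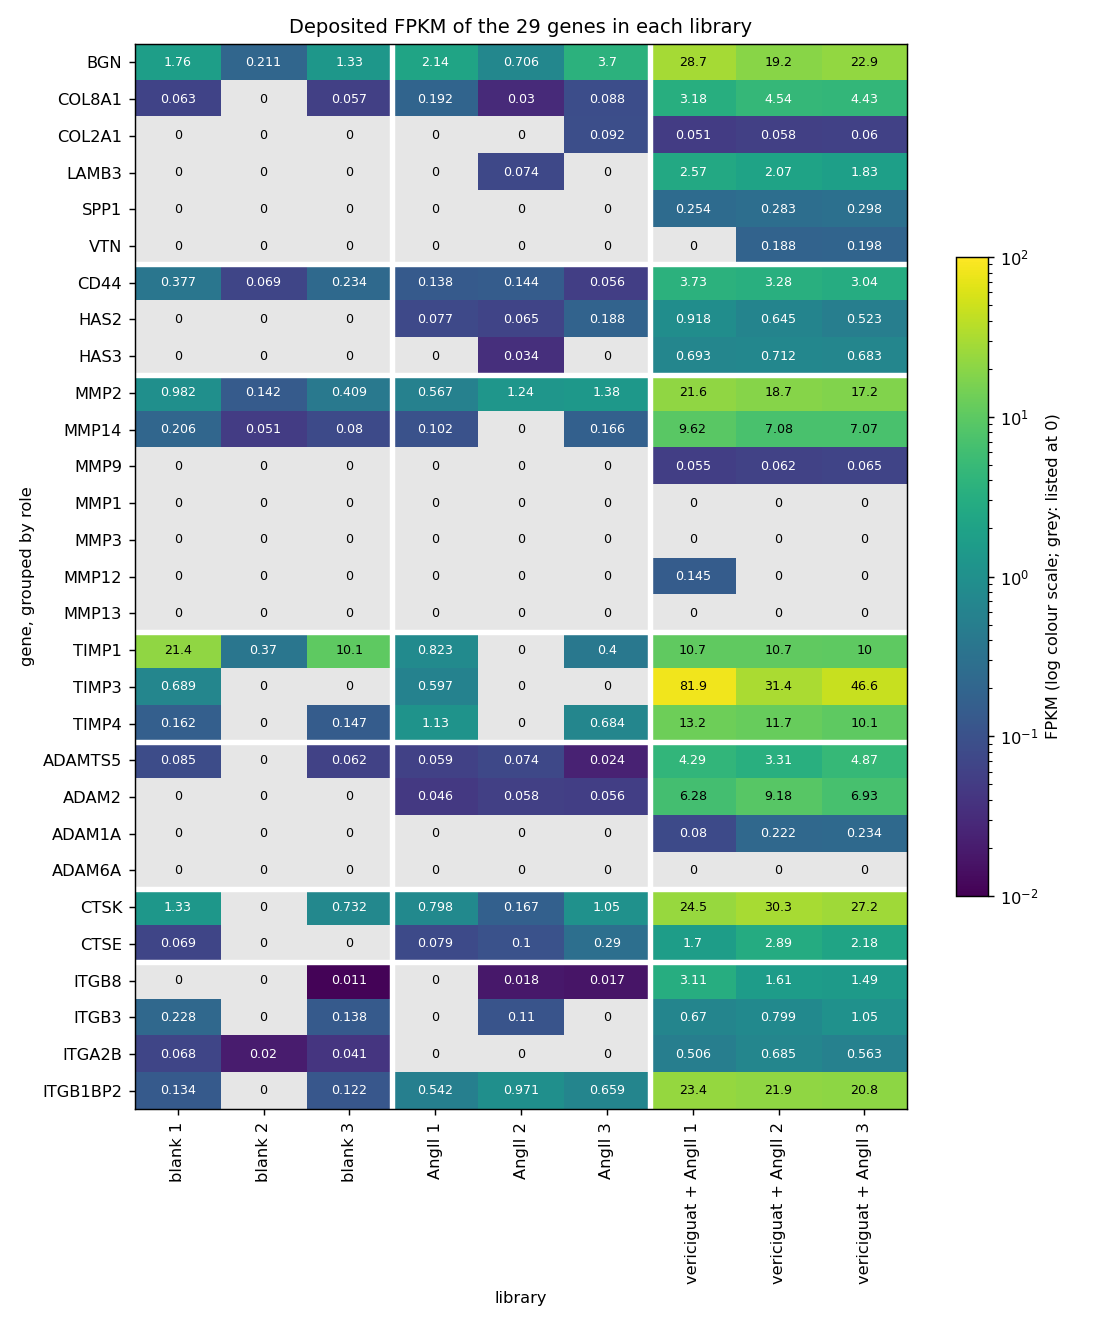
Deposited FPKM of the 29 matrix, protease and integrin genes (rows, grouped by role) in the 9 libraries (columns), printed in each cell and shown on a log colour scale, with grey for a gene listed at 0. The treated libraries hold 24 genes above 0 each, the second blank library 6, and TIMP1 is the gene with high values in the first and the third blank libraries (21.4 and 10.1 FPKM).

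The secreted collagenases and stromelysin of the list were almost without signal. MMP1 and MMP13, which cleave fibrillar collagen, and MMP3, a stromelysin that cuts proteoglycans and activates other MMPs, were listed at 0 in all 9 libraries. MMP12, the macrophage elastase, was listed at 0.145 FPKM in the first treated library and at 0 in the other 8. The estimate above always gives 1 fragment for a gene seen in a single library, so the number behind this value is unknown. In the rat, these 4 genes lie in a single stretch of chromosome 8, from position 12782829 for Mmp13 to 12963966 for Mmp1 (RefSeq, GRCr8 assembly). MMP9, a gelatinase of another chromosome, was at 0.055, 0.062 and 0.065 FPKM in treatment, about 1 fragment in each, and at 0 in the blank and AngII libraries. None of these 5 genes reached the minimum for a test (FPKM 1 in 3 libraries).

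The rat promoters of the 4 genes are shown because the same short motifs occur in all of them, beside those of Timp1 and Timp3, the inhibitor genes that were called in at least 1 comparison after scaling (below). Each is the 120 bases before the gene start used in the RefSeq promoter table, 5′ to 3′ on the strand of the gene, in the GRCr8 assembly. For Mmp1, Mmp12, Mmp13 and Timp3 this start is the outer end of the gene's RefSeq span. For Mmp3 it lies 14 bases and for Timp1 1456 bases inside the span, so the Timp1 stretch is not upstream of the whole gene. They are reference sequence and were not read from the libraries. Capitals mark TGAGTCA (the AP-1 site, either strand) and TATAAA (the TATA box) in the 4 Mmp genes, TGAGTAA in Timp1 and GGGCGG (the GC box) in Timp3, letters that were chosen after the sequences were read. Mmp1 is at chr8:12943333-12943452 (+), Mmp3 at chr8:12925161-12925280 (+), Mmp12 at chr8:12866532-12866651 (+), Mmp13 at chr8:12782709-12782828 (+), Timp1 at chrX:3771123-3771242 (-) and Timp3 at chr7:19459559-19459678 (-).
Mmp1: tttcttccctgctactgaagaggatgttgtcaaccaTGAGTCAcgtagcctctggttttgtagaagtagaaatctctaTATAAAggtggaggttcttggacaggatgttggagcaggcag
Mmp3: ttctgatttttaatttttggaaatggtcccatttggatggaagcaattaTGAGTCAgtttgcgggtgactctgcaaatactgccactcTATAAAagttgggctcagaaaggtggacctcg
Mmp12: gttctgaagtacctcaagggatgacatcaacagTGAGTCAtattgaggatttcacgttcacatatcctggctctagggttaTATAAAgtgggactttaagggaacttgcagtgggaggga
Mmp13: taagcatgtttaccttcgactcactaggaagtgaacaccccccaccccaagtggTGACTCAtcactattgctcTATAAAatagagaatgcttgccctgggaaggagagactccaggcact
Timp1: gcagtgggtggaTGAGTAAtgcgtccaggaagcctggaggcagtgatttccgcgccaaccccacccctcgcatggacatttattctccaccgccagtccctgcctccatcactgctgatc
Timp3: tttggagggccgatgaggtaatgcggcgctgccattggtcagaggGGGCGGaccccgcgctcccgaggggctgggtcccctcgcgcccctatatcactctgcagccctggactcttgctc

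A promoter was found for 18 of the 29 genes. TGAGTCA, searched on both strands, was present in all 4 of Mmp1, Mmp3, Mmp12 and Mmp13, in 0 of the other 14 and in 1.85% of the 27457 rat promoters of the same length. It began 84 bases before the table's start in Mmp1, 71 in Mmp3 and 87 in Mmp12, and lay on the opposite strand 66 bases before it in Mmp13. TATAAA was present in the same 4 genes, in 0 of the other 14 and in 6.81% of all promoters. It began 42, 32, 39 and 47 bases before that start in Mmp1, Mmp3, Mmp12 and Mmp13. TGAGTAA, which differs from the AP-1 site in a single letter, was present in Timp1 alone among the 18 and in 0.994% of all promoters. GGGCGG was present in Col8a1, Itgb8, Timp3 and Vtn and in 25.3% of all promoters. A match describes letters only, and all distances are counted from the start in the promoter table.

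The gelatinase MMP2 and MMP14, the membrane-bound enzyme that activates it, were the MMPs with signal. MMP2 was listed at 0.982, 0.142 and 0.409 FPKM in blank, at 0.567, 1.24 and 1.38 in AngII and at 21.6, 18.7 and 17.2 in treatment. The blank and AngII ranges overlapped, and the treated libraries lay far above both. Group means were 0.511 ± 0.429 FPKM (SD, n = 3) in blank, 1.06 ± 0.435 (SD, n = 3) in AngII and 19.2 ± 2.22 (SD, n = 3) in treatment. MMP14 was listed at 0.206, 0.051 and 0.080 FPKM in blank, at 0.102, 0 and 0.166 in AngII and at 9.62, 7.08 and 7.07 in treatment. Its blank and AngII values correspond to 0 to 7 fragments, and the 2 groups overlapped.

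Of the inhibitors, TIMP1, TIMP3 and TIMP4 are listed, and their patterns differed. TIMP1, a secreted inhibitor that is induced in many activated fibroblasts, was listed at 21.4, 0.370 and 10.1 FPKM in blank, at 0.823, 0 and 0.400 in AngII and at 10.7, 10.7 and 10.0 in treatment. These values correspond to 150, 3 and 78 fragments in blank, 5, 0 and 2 in AngII and 64, 57 and 51 in treatment. It was the highest of the 29 genes in each blank library, and the treated libraries fell inside the blank range. TIMP3, the inhibitor that is held in the matrix, was listed at 0.689, 0 and 0 FPKM in blank, at 0.597, 0 and 0 in AngII and at 81.9, 31.4 and 46.6 in treatment, where it was the highest of the 29. A single library in each of the blank and AngII groups held 4 and 3 fragments of it, and the others none. TIMP4, the inhibitor best known from the heart, was listed at 0.162, 0 and 0.147 FPKM in blank, at 1.13, 0 and 0.684 in AngII and at 13.2, 11.7 and 10.1 in treatment. The AngII library at 0 keeps its blank and AngII groups overlapping.

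The other proteases were low outside the treated libraries. CTSK, a lysosomal cysteine protease that degrades collagen, was listed at 1.33, 0 and 0.732 FPKM in blank, at 0.798, 0.167 and 1.05 in AngII and at 24.5, 30.3 and 27.2 in treatment. ADAMTS5, an aggrecanase, was at 0 to 0.085 FPKM in the 6 blank and AngII libraries and at 4.29, 3.31 and 4.87 in treatment. CTSE, an aspartic protease of stomach and immune cells, was at 0.069, 0 and 0 FPKM in blank, at 0.079, 0.100 and 0.290 in AngII and at 1.70, 2.89 and 2.18 in treatment. Every AngII library lay above every blank library for CTSE, on 1, 1 and 3 fragments against 1, 0 and 0. ADAM2, a sperm surface protein, was listed at 0 in blank, at 0.046, 0.058 and 0.056 FPKM in AngII (1 fragment each) and at 6.28, 9.18 and 6.93 in treatment. ADAM1A, of the same family, was at 0.080, 0.222 and 0.234 FPKM in treatment and at 0 in the others, and ADAM6A was listed at 0 in all 9.

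Of the structural matrix genes among the 29, BGN was the highest. DCN, LUM and MGP, matrix genes outside the 29, lay above it in all 9 libraries. BGN, the proteoglycan biglycan, was listed at 1.76, 0.211 and 1.33 FPKM in blank, at 2.14, 0.706 and 3.70 in AngII and at 28.7, 19.2 and 22.9 in treatment. The blank and AngII groups overlapped, with means of 1.10 ± 0.798 (SD, n = 3) and 2.18 ± 1.50 FPKM (SD, n = 3), against 23.6 ± 4.79 FPKM (SD, n = 3) in treatment. COL8A1, a short-chain collagen of vessel walls, was at 0.063, 0 and 0.057 FPKM in blank, at 0.192, 0.030 and 0.088 in AngII and at 3.18, 4.54 and 4.43 in treatment. LAMB3, a laminin chain of epithelial basement membranes, was not seen in blank, lay at 0, 0.074 and 0 FPKM in AngII and at 2.57, 2.07 and 1.83 in treatment. COL2A1, the collagen of cartilage, stayed at 0.092 FPKM or less in every library. SPP1 (osteopontin) was at 0.254, 0.283 and 0.298 FPKM and VTN (vitronectin, a plasma protein) at 0, 0.188 and 0.198 FPKM in treatment, and both were at 0 in the others. The values of SPP1 correspond to 1 fragment in each treated library.

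The genes of hyaluronan, the long sugar chain of the matrix, were also highest in treatment. CD44, its main receptor, was listed at 0.377, 0.069 and 0.234 FPKM in blank, at 0.138, 0.144 and 0.056 in AngII and at 3.73, 3.28 and 3.04 in treatment. The blank and AngII values of CD44 overlapped. HAS2, a synthase of hyaluronan, was at 0 in blank, at 0.077, 0.065 and 0.188 FPKM in AngII and at 0.918, 0.645 and 0.523 in treatment, with 3, 2 and 6 fragments in AngII. HAS3, a second synthase, was at 0.034 FPKM in a single AngII library, at 0 in the other 5 blank and AngII libraries and at 0.693, 0.712 and 0.683 in treatment.

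The integrin chains listed by symbol (ITGB8, ITGB3 and ITGA2B) had little signal, and the highest value under an integrin symbol belonged to a binding partner. Other integrin chains are not among the names, so their levels are unknown. ITGB8, a chain that activates latent TGF-β, was at 0 to 0.018 FPKM in the blank and AngII libraries and at 3.11, 1.61 and 1.49 in treatment. ITGB3, the beta chain of the vitronectin receptor, was at 0.228, 0 and 0.138 FPKM in blank, at 0, 0.11 and 0 in AngII and at 0.670, 0.799 and 1.05 in treatment. ITGA2B, its partner on platelets, was at 0.068, 0.020 and 0.041 FPKM in blank, at 0 in AngII and at 0.506, 0.685 and 0.563 in treatment. The blank values of ITGA2B correspond to 3, 1 and 2 fragments. ITGB1BP2 (melusin), a muscle protein that binds the integrin beta-1 tail and is no integrin itself, was listed at 0.134, 0 and 0.122 FPKM in blank, at 0.542, 0.971 and 0.659 in AngII and at 23.4, 21.9 and 20.8 in treatment. The 3 groups did not overlap for ITGB1BP2, on 2, 0 and 2 fragments in blank, 7, 10 and 7 in AngII and 297, 249 and 225 in treatment. The summed cardiomyocyte markers had the same order of groups, with the values given above, and their part in the values of ITGB1BP2 was not tested.

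Tests were run with limma on log2(FPKM + 1) over the 10908 genes that reached FPKM 1 in 3 or more libraries, and calls needed a log2 fold change of 1 or more in either direction with an adjusted p (Benjamini-Hochberg) under 0.05. Of the 29 genes, 15 passed this minimum and 14 did not. Of the 15, 14 passed only with the help of the treated libraries, and 10 had no blank or AngII library at FPKM 1, so that a difference from the treated libraries was built into the choice of genes to test. Only BGN reached FPKM 1 in at least 3 of the other 6 libraries. Log2 fold changes on this scale understate the change of genes with low values.

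Between AngII and blank, none of the 15 tested genes was called, against 1.55% of all tested genes. TIMP1 and ITGB1BP2 had an unadjusted p below 0.05 (2 of 15), a level reached by 14.4% of all tested genes. The groups did not overlap for 3 of the 15 (ADAM2, CTSE and ITGB1BP2), against 21.3% of all tested genes. The median log2 fold change was 0.03 over the 15 and 0.06 over all genes. TIMP1 was lower in AngII by a log2 fold change of -2.35 (standard error, SE, 0.78), the 11th lowest of the 10908 genes, at an adjusted p of 0.177 from limma. An exact permutation test gave 0.3 for TIMP1, where 0.1 is the smallest p that 3 libraries against 3 allow. Without the second blank library, which had 3 fragments of TIMP1, the call was made, at -3.53 (adjusted p = 0.00134 from limma). ITGB1BP2 had a log2 fold change of 0.66 (SE 0.16, adjusted p = 0.0613 from limma), and the exact permutation test gave 0.1. For MMP2, BGN and TIMP4 the log2 fold changes were 0.46, 0.57 and 0.48, with adjusted p from limma of 0.429, 0.613 and 0.408.

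Between treatment and AngII, all 15 tested genes were called and all were higher in treatment, as were 99.5% of all tested genes, with 99.6% called in either direction. The groups did not overlap for any of the 15, and for 99.8% of all genes. Between treatment and blank, 14 of the 15 were called higher, against 99.3% of all tested genes called higher and 99.4% called in either direction. The groups did not overlap for these 14, and for 99.7% of all genes. A share of this size is near the background and is no result about the matrix genes. Their median log2 fold change was 3.03 against AngII and 2.99 against blank, and that of all tested genes was 2.76 and 2.83. TIMP3 had the highest log2 fold change of the 15 in both comparisons, at 5.43 against AngII (SE 0.35, adjusted p = 1.98e-08 from limma) and 5.40 against blank. CTSK followed at 4.12 against AngII, and against blank ITGB1BP2 at 4.41 and CTSK at 4.15. CTSE was the lowest against AngII, at 1.48. MMP2 had 3.31 against AngII and 3.77 against blank.
TIMP1 was the exception. It was called against AngII at 3.07 (SE 0.78, adjusted p = 0.00246 from limma) and not called against blank, where its log2 fold change was 0.71 (adjusted p = 0.379 from limma), the 39th lowest of all tested genes and 2.12 below their median. Without the first blank library the difference from blank was called higher at 1.56 (adjusted p = 0.0434 from limma), and without the second it was -0.46 (adjusted p = 0.19 from limma). Both comparisons use the same treated libraries, so their values are related.

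Since nearly all tested genes shifted together, the libraries were also set to the same typical gene level by median-ratio scaling. Only the 3826 genes above 0 in all 9 libraries were used for it. The second blank library, with the fewest genes above 0 (5511), limited this choice most, and its effect on the factors was not tested. The factors were 0.463, 0.0792 and 0.263 for the blank, 0.297, 0.448 and 0.334 for the AngII and 15.8, 14.2 and 13.9 for the treated libraries. Values of 1 fragment in the second blank library are thereby raised most. Scaled values compare a gene with the typical gene among these 3826 in its library. They carry no information on a shift that all genes share. On the log2(scaled FPKM + 1) scale, a gene below 1 in every library cannot reach a log2 fold change of 1. CD44, ADAM2, ITGB8, COL8A1, ADAMTS5, CTSE, LAMB3 and MMP14 lay below 1 in every library and so could not be called in any comparison. Over all tested genes the median was then 0.08 for AngII against blank, 0.09 for treatment against AngII and 0.18 for treatment against blank, and over the 15 genes it was 0.17, -0.03 and 0.18 (log2 fold changes).

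For AngII against blank, scaling gave calls for TIMP1 and ITGB1BP2, 2 of the 15 (8.39% of all tested genes were called). TIMP1 was lower in AngII, a direction called for 3.23% of all genes. Its scaled values were 46.2, 4.67 and 38.4 in blank, 2.77, 0 and 1.20 in AngII and 0.679, 0.751 and 0.721 in treatment. Every AngII library lay below every blank library, and the log2 fold change was -3.44 (SE 0.75, adjusted p = 0.0165 from limma). This SE also draws on the treated libraries, whose values lay close together. As deposited, a fit of only the compared groups raised the SE of TIMP1 from 0.778 to 1.041 (adjusted p = 0.334 from limma). That fit was not run after scaling. The call was lost without the first or the third blank library (adjusted p = 0.0567 and 0.0651 from limma). ITGB1BP2 was higher in AngII, a direction called for 5.16% of all genes. Its scaled values were 0.290, 0 and 0.464 in blank, 1.83, 2.17 and 1.97 in AngII and 1.48, 1.54 and 1.50 in treatment. The log2 fold change was 1.27 (SE 0.20, adjusted p = 0.00341 from limma), and the call was kept when any of the 9 libraries was left out. ITGB1BP2 was not called after quantile normalization (0.993) or with an equal sum without KEF51 (0.881, adjusted p = 0.0915 from limma). Among the fits of deposited values, it was called only with a pseudocount of 0.1 (2.217). The groups did not overlap for 5 of the 15 genes, against 25.9% of all genes. CD44, with scaled values of 0.815, 0.871 and 0.890 in blank against 0.465, 0.321 and 0.168 in AngII, was among these 5. Its log2 fold change of -0.50 (adjusted p = 0.048 from limma) lay inside the fold threshold. Without the second AngII library, TIMP4 and BGN were also called, and so were 12.8% of all tested genes.

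For treatment against AngII, scaling left none of the 15 genes called, against 4.16% of all tested genes, and 6 of the 15 had an unadjusted p below 0.05, a level reached by 29.7% of all tested genes. Those of the 15 with scaled values below 1 in every library could not have been called. The groups did not overlap for 8 of the 15 and for 40.6% of all genes. TIMP3 was highest, at a log2 fold change of 1.62 (SE 0.50, adjusted p = 0.0579 from limma), followed by ADAM2 at 0.39 and MMP14 at 0.29. BGN, MMP2 and TIMP4 were lowest, at -1.29, -0.73 and -0.45, with adjusted p from limma of 0.115, 0.0692 and 0.592. For MMP2 the scaled values were 1.91, 2.78 and 4.13 in AngII and 1.37, 1.32 and 1.24 in treatment, which did not overlap. For BGN they were 7.21, 1.58 and 11.1 against 1.82, 1.35 and 1.65, which did. TIMP3 was called without the first blank library, and TIMP3 and MMP2 (lower) without the first AngII library. TIMP4 and BGN were called lower without the second AngII library, where 6.93% of all tested genes were called in either direction.

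For treatment against blank, scaling gave calls for TIMP3, ITGB1BP2 and TIMP1, 3 of the 15 (9.56% of all tested genes were called). TIMP3 and ITGB1BP2 were higher, a direction called for 6.15% of all genes, and TIMP1 was lower, a direction called for 3.41%. TIMP3 and ITGB1BP2 had no blank or AngII library at FPKM 1 and were tested only because their treated libraries were high. Their calls as higher in treatment are therefore no independent support for a difference. The log2 fold change of TIMP1 was -3.68 (SE 0.75, adjusted p = 0.00545 from limma), the 28th lowest of all tested genes, and it was called when any of the 9 libraries was left out. Its sign was thus opposite to that in the deposited values, where it was 0.71. ITGB1BP2 had 1.02 (SE 0.20, adjusted p = 0.00395 from limma), close to the fold threshold, and lost the call without the second blank library or any of the treated libraries (0.82 to 0.96 on the log2 scale). TIMP3 had scaled values of 1.49, 0 and 0 in the blank against 5.20, 2.22 and 3.35 in treatment, and a log2 fold change of 1.71 (SE 0.50, adjusted p = 0.0289 from limma). Its call was lost without blank library 2 or 3 or treated library 1 or 3 (adjusted p from 0.0847 to 0.117 from limma). The groups did not overlap for 10 of the 15 genes, against 60.6% of all genes. BGN and CD44 were the lowest after TIMP1, at -0.87 (adjusted p = 0.214 from limma) and -0.60 (adjusted p = 0.0131 from limma), and neither was called.

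**Figure D2:**
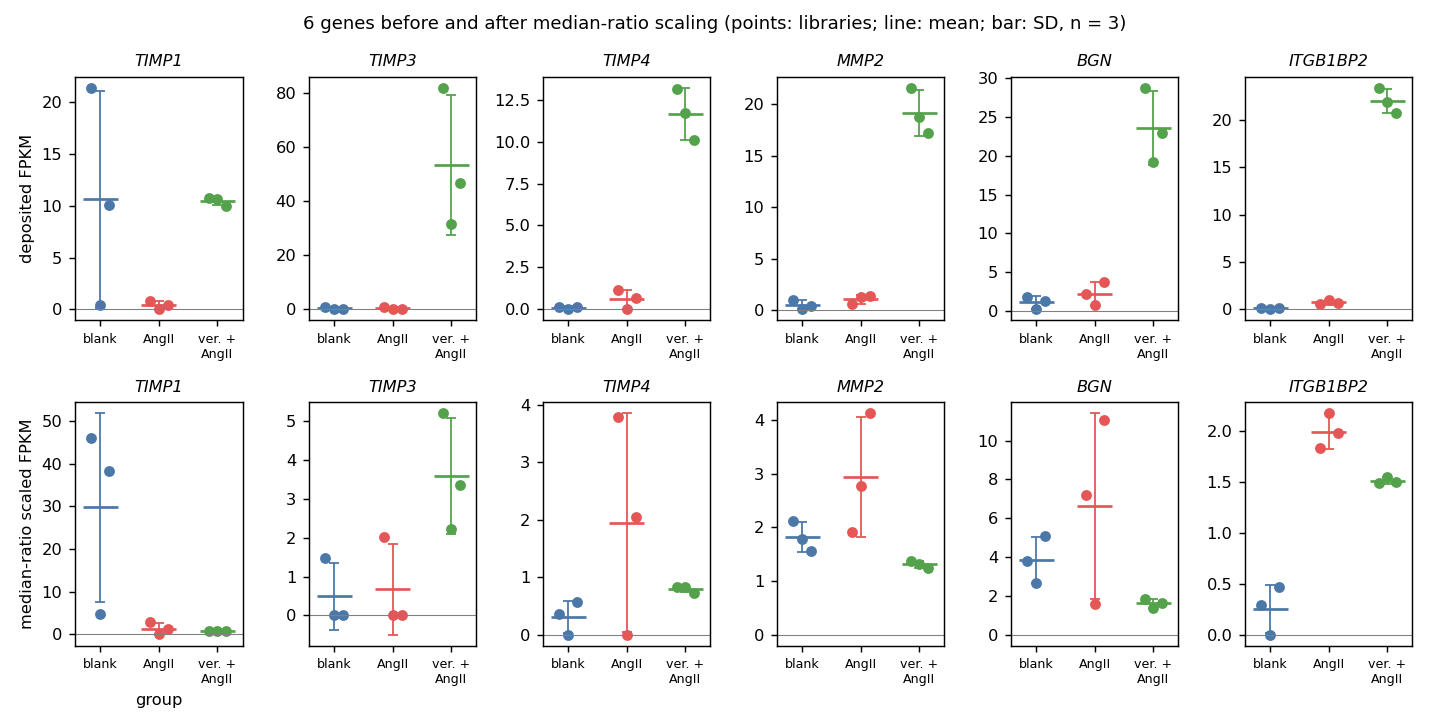
Values of 6 genes in the 9 libraries as deposited and after median-ratio scaling, each on a linear axis of its own (upper row deposited FPKM, lower row scaled FPKM), with a point for each library and the group mean and SD. TIMP1 in treatment is inside the blank range as deposited (10.0 to 10.7 FPKM) and at 0.679 to 0.751 after scaling, below the blank values of 4.67 to 46.2.

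**Figure D3:**
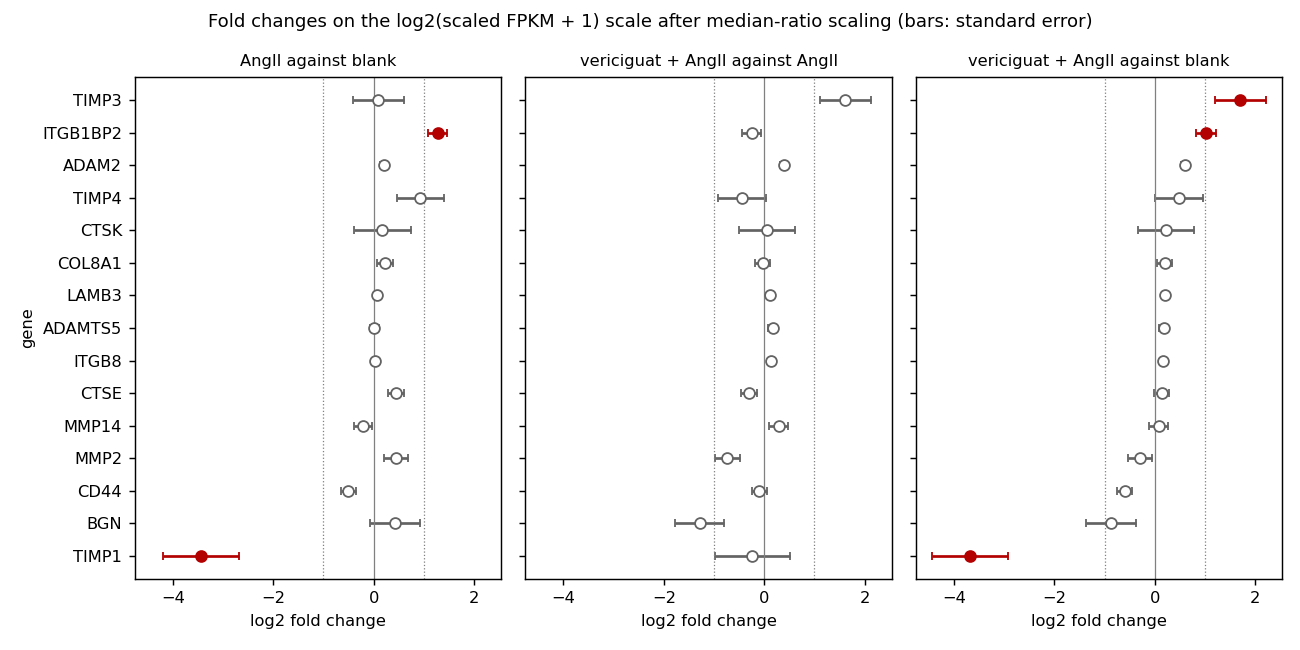
Log2 fold changes of the 15 tested genes after median-ratio scaling in the 3 comparisons, with bars of 1 standard error from limma and filled points for called genes. Calls are TIMP1 (-3.44) and ITGB1BP2 (1.27) for AngII against blank, none for treatment against AngII, and TIMP3 (1.71), ITGB1BP2 (1.02) and TIMP1 (-3.68) for treatment against blank.

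Ratios of 2 genes within a library do not depend on the scale of the library. The ratio of MMP2 to TIMP1 was 0.0459, 0.384 and 0.0405 in blank and 0.689 and 3.45 in the first and the third AngII libraries, with TIMP1 at 0 in the second. It was 2.01, 1.76 and 1.72 in treatment, above every blank library and inside the range of the AngII libraries. The ratio of TIMP1 to DCN, the proteoglycan decorin that marks fibroblasts, was 1.46, 0.305 and 1.21 in blank, 0.0621, 0 and 0.030 in AngII and 0.0266, 0.0377 and 0.0403 in treatment. Relative to both genes, TIMP1 was higher in every blank library than in any AngII or treated library. Several of these ratios rest on few fragments. By the estimate above, the second blank library held 3 fragments of MMP2 and 3 of TIMP1. The first AngII library held 9 and 5 and the third 18 and 2, so the gap between blank and AngII is uncertain there. TIMP1 made up 77.7%, 42.9% and 75.0% of the summed FPKM of the 29 genes in blank, 11.3%, 0% and 4.52% in AngII and 4.43%, 5.87% and 5.27% in treatment. TIMP3 made up 33.9%, 17.3% and 24.5% in treatment. Without TIMP1, the sum of the genes in parts per 1000000 of the FPKM outside KEF51 was 198, 13.6 and 89.1 in blank, 141, 65.9 and 157 in AngII and 542, 399 and 416 in treatment. With ADORA1-2 also left out of the total it was 493, 136 and 434 in blank, 612, 329 and 553 in AngII and 654, 494 and 576 in treatment, and the AngII and treated libraries overlapped.
Within the genes above 0 of its library, TIMP1 stood at percentiles 99.2, 88.7 and 99.0 in blank, 87.0 and 73.2 in the first and the third AngII and 74.5, 75.9 and 75.0 in treatment. ITGB1BP2 stood at 36.2 and 48.1 in the first and the third blank libraries, 81.2, 84.9 and 82.1 in AngII and 87.8, 87.8 and 87.5 in treatment. MMP2 ranged from 70.7 to 90.7 and BGN from 79.7 to 96.0 over all 9 libraries. These ranks are a description, since each library holds a different number of genes above 0.

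**Figure D4:**
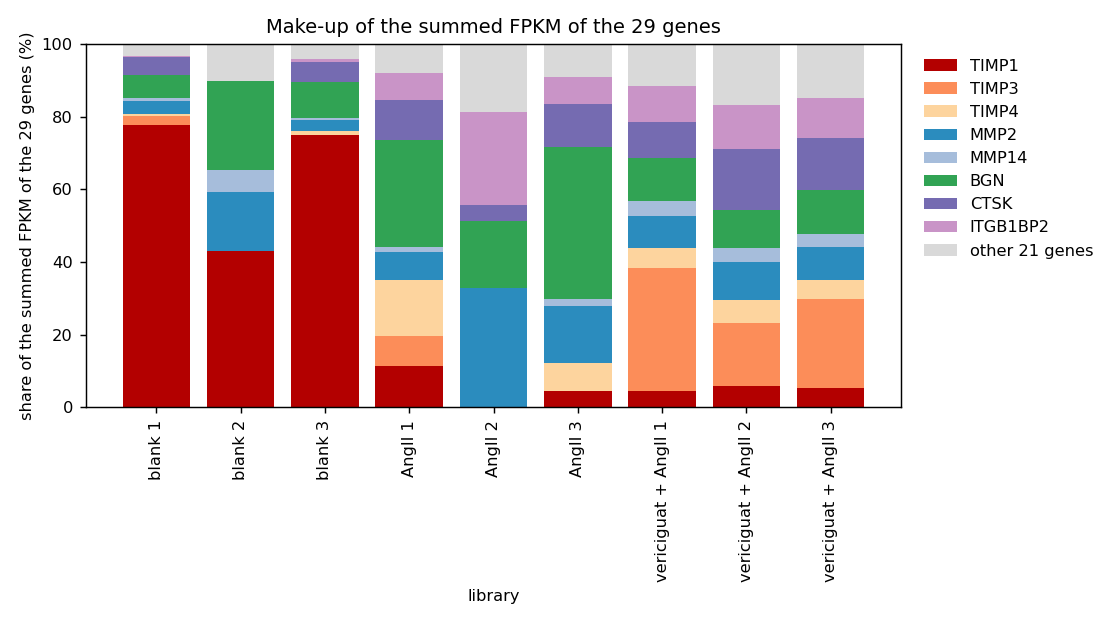
Share of the summed FPKM of the 29 genes that each named gene takes (stacked bars, %) in each of the 9 libraries. TIMP1 takes 42.9% to 77.7% in blank, 0% to 11.3% in AngII and 4.43% to 5.87% in treatment, where TIMP3 takes 17.3% to 33.9%.

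Other genes of the pathway were taken from 4 lists. Of 18 genes of collagen processing 1 was listed and tested, of 36 other matrix proteins 9 were listed and 8 tested, of 14 genes of the plasminogen system and protease inhibitors 5 were listed and 4 tested, and of 21 focal adhesion genes 2 were listed and tested. As deposited, none of the 15 tested genes of these lists was called for AngII against blank, and all were called higher in both comparisons with treatment, where the shares of all tested genes were 99.5% and 99.3%. After scaling, 3 of the 15 were called for AngII against blank, against 8.39% of all tested genes. CCN2, a matricellular growth factor of fibrosis, was listed at 7.79, 0.355 and 4.14 FPKM in blank, 0.684, 0.594 and 0.512 in AngII and 34.7, 19.8 and 33.8 in treatment. Its scaled log2 fold change was -2.13 (SE 0.43, adjusted p = 0.0121 from limma). PLAT, the tissue plasminogen activator, was listed at 3.67, 0.107 and 1.72 FPKM in blank, 0, 0.239 and 0.058 in AngII and 4.50, 4.49 and 5.17 in treatment, with a scaled log2 fold change of -2.15 (SE 0.44, adjusted p = 0.0122 from limma). CSTB, an inhibitor of cathepsins, was higher at 1.62 (SE 0.46, adjusted p = 0.0429 from limma). For treatment against blank, 5 of the 15 were called (9.56% of all tested genes). P4HB, a subunit of the enzyme that hydroxylates collagen, was called lower at -1.22, CCN2 at -1.99 and PLAT at -2.03, while CAV1 (caveolin) and FLNA (filamin) were called higher at 1.32 and 1.42. FLNA was the single call for treatment against AngII, at 1.42 (4.16% of all tested genes were called). FLNA lay below FPKM 1 in every blank and AngII library, so it too was tested only because its treated libraries were high. CCN2 and PLAT thus shared with TIMP1 the order of blank above AngII and treatment on the scaled values. As deposited, all 3 were lowest in the second blank library among the blank libraries. This was not particular to them, since DCN, LUM, MGP, BGN and MMP2, among others, were lowest there as well.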

How the data were processed

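Before deposit, the authors filtered reads for quality, adapter and unknown bases, matched them to a reference genome to which predicted transcripts were added, and computed FPKM per gene and library, without pooling. The submitters' processing notes name FastQC 0.11.9, Trimmomatic 0.39, HISAT2 2.2.1, featureCounts 2.0.1 and the build OryCun2.0. The deposited FPKM table holds no counts, so the depth of each library is unknown. Its number of fragments was only estimated from the steps between low values.

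FPKM is not a count, so limma 3.58.1 in R 4.3.3 (lmFit, eBayes with trend) was run on log2(FPKM + 1) over 10908 genes that reached FPKM 1 in 3 or more of the 9 libraries. All libraries entered a single fit across all genes, with Benjamini-Hochberg adjustment. Groups came from the sample labels. A two-sided exact permutation test was added for single genes. The fit was tested on simulated data with normal noise of the same size in all groups. These had no floor at 0 and no shift shared by most genes. They therefore cannot show how the fit behaves on the low values here. Genes named with values were, in each role, the 3 highest in mean FPKM, those called for AngII against blank, the 3 highest and 3 lowest after scaling, and MMP2. The rest were described as well. The genes and lists were chosen with earlier results of these data known. Alternatives were median-ratio scaling, quantile normalization, an equal sum without KEF51, a pseudocount of 0.1, other minimums, only the compared groups, a replicate block, no trend and each library left out. Promoters came from RefSeq (GRCr8), and figures were drawn with matplotlib 3.10.9.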

Additional observations from a re-analysis of the deposited data

How the results depend on the processing

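The scale between libraries decided most of the calls. For AngII against blank, 0 of the 15 tested genes were called as deposited (2 at an unadjusted p below 0.05 from limma), 2 after median-ratio scaling, and 1 each after quantile normalization (7.35% of all tested genes), with a pseudocount of 0.1 (8.88%) and with a mean FPKM of at least 5 (10.9%), where only 6 of the genes were tested. For treatment against AngII, 15 were called as deposited, 0 after median-ratio scaling, 1 after quantile normalization (3.47% of all tested genes), 5 with an equal sum outside KEF51 (43.8%) and 6 of 6 with a mean FPKM of at least 5 (99.6%). For treatment against blank the numbers were 14, 3, 2 (8.65%), 7 (46.4%) and 5 of 6 (99.6%). The sum outside KEF51 is mostly the entry ADORA1-2 in blank and AngII. No filter (25 genes tested), only the compared groups, no trend and the replicate block gave 0, 15 and 14 in the 3 comparisons. For AngII against blank, the shares of all tested genes called were 0.432%, 0%, 2.02% and 0.0642%, in that order. For treatment against AngII they were 61.5%, 99.7%, 99.6% and 99.6%, and for treatment against blank 61.6%, 99.4%, 99.4% and 99.4%. Same-numbered libraries did not deviate together (correlations of -0.062 to 0.065), so no pairing by replicate number was seen. Of the 10908 tested genes, 9821 had under 3 blank or AngII libraries at FPKM 1. With so many low values, the correlations cannot decide whether cultures or animals were paired.
Leaving out each library in turn gave 0 to 1, 15 and 14 to 15 calls in the 3 comparisons as deposited. The shares of all tested genes called were then 0% to 2.83%, 99.5% to 99.7% and 99.1% to 99.7%. After median-ratio scaling, leaving out each library, which was added after the data were seen, gave 1 to 4, 0 to 2 and 1 to 3. The shares of all tested genes called were then 5.16% to 12.8%, 1.78% to 6.93% and 5.63% to 12.8%. The 4 calls for AngII against blank came without the second AngII library, where 12.8% of all tested genes were called.
Signs also changed with the scale. After median-ratio scaling the log2 fold change of TIMP3 for AngII against blank was 0.092. For treatment against AngII it was -0.095 for CD44, -0.732 for MMP2, -0.446 for TIMP4, -0.029 for COL8A1, -0.303 for CTSE, -0.238 for TIMP1, -0.251 for ITGB1BP2 and -1.287 for BGN. For treatment against blank it was -0.597 for CD44, -0.286 for MMP2, -3.675 for TIMP1 and -0.867 for BGN. After quantile normalization, ITGB8 and ADAMTS5 had -0.051 and -0.065 for AngII against blank. For treatment against AngII, the values were CD44 -0.323, MMP2 -0.525, TIMP4 -0.283, ITGB8 -0.112, COL8A1 -0.199, ADAMTS5 -0.017, CTSE -0.566, LAMB3 -0.092, TIMP1 -0.144, ITGB1BP2 -0.135 and BGN -0.896. For treatment against blank they were CD44 -0.856, MMP2 -0.274, ITGB8 -0.163, COL8A1 -0.066, ADAMTS5 -0.082, CTSE -0.171, LAMB3 -0.073, MMP14 -0.122, TIMP1 -3.474 and BGN -0.756. With an equal sum outside KEF51, CTSK and ADAMTS5 had -0.192 and -0.049 for AngII against blank, and TIMP1 -2.186 for treatment against blank. These alternatives remove part or all of the shift shared by nearly all tested genes.
Over the libraries left out, the log2 fold change for AngII against blank ranged from -0.252 to 0.225 for TIMP3, from -0.303 to 0.306 for CTSK, from -0.029 to 0.030 for ADAMTS5 and from -0.081 to 0.030 for MMP14. That of TIMP1 for treatment against blank ranged from -0.460 to 1.555. After median-ratio scaling, TIMP1 ranged from -0.775 to 0.231 for treatment against AngII. The low values of most genes outside the treated libraries, a few fragments or none, limit what can be seen between AngII and blank.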
